A study of Mus musculus with 24 samples.

Results

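The genes described here are 31 genes listed as transcriptional targets of the tumour suppressor p53. The list leaves out the feedback loop of p53 and Mdm2, and also Cdkn1a, which encodes the cyclin-dependent kinase inhibitor p21. Whether p53 drives each of the 31 genes in these cells was not tested. They were chosen by symbol and are 31 of the 54242 symbols in the expression table. All 31 passed the filter used for testing, an average log2(TPM + 1), taken over the 24 libraries, of 0.5 or more. By role they comprise 7 genes of growth control and stress, 7 of cell death, 6 of DNA repair, 3 of the mitotic spindle, 7 of metabolism and other functions, and Trp73, the p53 paralogue.

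p53 is a transcription factor that is kept scarce by MDM2, a ubiquitin ligase whose own gene is a p53 target. When MDM2 is inhibited, for example by ribosomal proteins that are left over when ribosome assembly fails, p53 accumulates as a protein without a rise in its mRNA and switches on genes that halt the cell cycle, repair DNA, adjust metabolism or start cell death. ESCs make much p53 and divide fast, with a short G1 phase, so the identity of the targets they use is of interest in these cells.

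RNA-seq had been carried out on mouse CGR8 ESCs, an established embryonic stem cell line, with 3 libraries in each of 8 groups. Cells were transfected with a pool of non-targeting siRNAs (si-CTL) or of siRNAs against Rsl24d1 (si-Rsl24d1), which encodes an assembly factor of the large ribosomal subunit, and were cultured without or with doxycycline, which induces an ectopic Rsl24d1 (rescue). They were taken in FBS with LIF, named day 0, at 72 h after transfection in the treatment protocol and at 48 h in the sample descriptions, or after 4 days in 10 nM retinoic acid (RA), named day 4. The design text lists LIF with RA, which the sample labels do not. In the labels the vector is empty_vector where no doxycycline was given and RSL24D1_OE elsewhere, whereas the methods describe 1 rescue line with and without doxycycline, so a difference between these groups may include the vector. Levels are given as log2(TPM + 1). TPM measure transcript abundance per length, scaled to the same sum in every library.

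Rsl24d1 mRNA was lower in si-Rsl24d1 than in si-CTL cells at day 0 (difference -1.95 ± 0.07 on the log2 scale, SE, limma adjusted p = 3.2e-14), from a mean of 141 to 35.7 TPM. With rescue the difference was -0.50 ± 0.07 (adjusted p = 2.2e-05), with reads of the endogenous and the ectopic transcript counted together. At day 4 no difference was detected (-0.04 ± 0.07, adjusted p = 0.66), which bears on every day 4 comparison. The 10 pluripotency markers read as a check of the cells summed to 5866 to 6047 TPM in day 0 si-CTL cells without rescue. From day 0 to day 4 of these cells 8 of the 10 fell and 2 rose by the adjusted p, with a median of -0.65, while the sum was 7222 to 7418 TPM at day 4. The depth of the libraries is unknown, because TPM keep no read numbers. As these are bulk samples, fewer cells of a type and less RNA per cell cannot be told apart.

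A single p53 half-site, written from the published consensus as 3 purines, C, 2 bases that are A or T, G and 3 pyrimidines, was searched in the 300 bases around the start sites that RefSeq gives on GRCm38.p6. The reverse complement of this pattern is the same pattern, so both strands were covered. Of the 31 genes, 23 were matched in that table and 6 of those 23 (26.1%) held the motif, against 9.55% of 27025 symbols. A symbol counted when any of its start sites held a match, and the number of start sites was not matched. The 6 windows are shown because they hold a match to this pattern, and binding of p53 there was not tested. The half-site is in capitals and each window is written 5′ to 3′ on the strand of the gene.
Ckap2 (chr8:22185993-22186042, minus strand): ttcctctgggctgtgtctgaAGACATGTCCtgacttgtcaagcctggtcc
Polk (chr13:96519389-96519437, minus strand): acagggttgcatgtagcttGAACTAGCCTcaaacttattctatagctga
Ei24 (chr9:36797335-36797364, minus strand): ccagctgccccgtgcggcccGGGCATGCCC
Gtse1 (chr15:85859945-85859964, plus strand): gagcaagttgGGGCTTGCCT
Aen (chr7:78895927-78895946, plus strand): agccgaagccGGGCTTGTCC
Sesn1 (chr10:41887246-41887295, plus strand): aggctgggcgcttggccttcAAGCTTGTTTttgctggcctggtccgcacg

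Of these 6 genes, Ckap2 and Polk were called higher after Rsl24d1 depletion at day 0, Gtse1, Ei24 and Aen passed the adjusted p with smaller changes, and Sesn1 did not pass. Known p53 sites often lie in introns or far upstream, so the lack of a match in the other 17 windows says only that these letters are not in those bases. A second motif, the CHR element of cell cycle genes (TTTGAA on either strand), was found in 5 of the 23 (21.7%), against 20.2% of all symbols. The 5 were Aen, Ckap2, Ercc5, Fas and Gdf15.

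The first question was which of the 31 targets responded to Rsl24d1 depletion in self-renewing ESCs. At day 0 without rescue, 21 of the 31 were called higher in si-Rsl24d1 than in si-CTL cells, that is, they changed by more than 1.8-fold and had an adjusted p below 0.01, and none was called lower with limma, although 2 were lower at an unadjusted p under 0.05. Over all 16447 genes tested, 3.40% were called higher and 0.772% lower. By the adjusted p alone 24 members rose and 2 fell, against 14.3% and 16.1% of all genes. The median log2 fold change was 1.20 over the members and -0.01 over all genes. The 3 si-Rsl24d1 libraries lay above all 3 si-CTL libraries in 25 members and below them in 2, as they did in 23.8% and 27.3% of all genes. With 3 libraries against 3, an exact two-sided permutation test of a single gene cannot go below p = 0.1, so the calls rest on the fit across all genes. Trp53 itself, at a mean of 462 TPM in si-CTL cells, differed by 0.05 ± 0.049 (adjusted p = 0.44), while Mdm2 rose by 2.33 ± 0.058 and Cdkn1a by 1.18 ± 0.047 (adjusted p = 2.2e-16 and 1.7e-13). In the same libraries 7 of 10 pluripotency markers fell by the adjusted p, 2 of them past the fold threshold, with a sum of 4958 to 4970 TPM in si-Rsl24d1 cells. By the adjusted p 1 of 6 tested primitive endoderm markers and 2 of 7 fibroblast markers fell and none of either list rose, and of 5 neural progenitor markers 1 rose and 1 fell. The part of these shifts in the members' values was not tested.

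**Figure D1:**
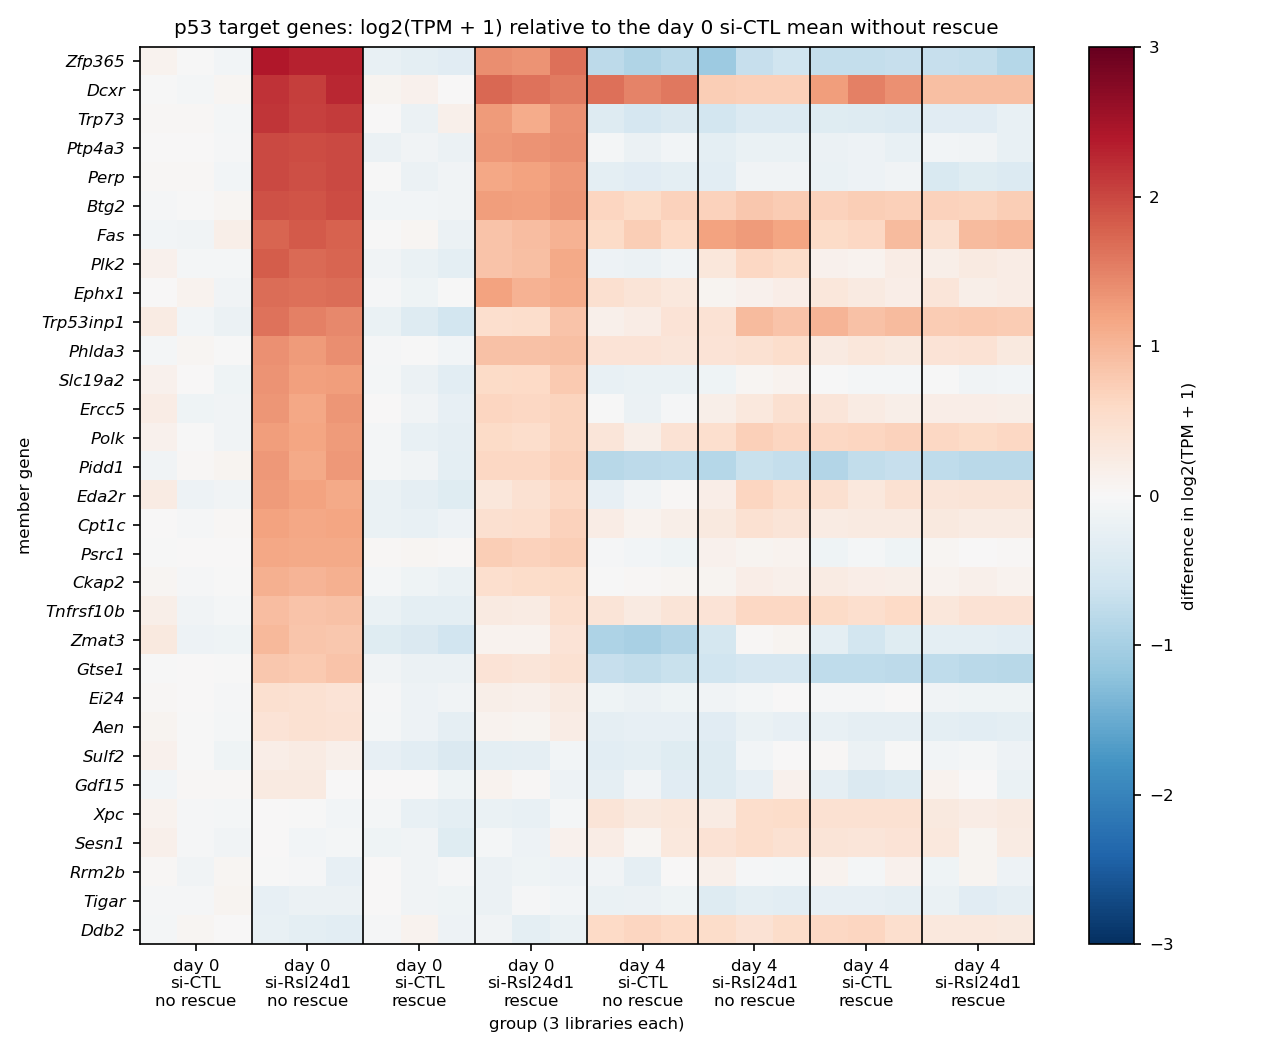
Difference in log2(TPM + 1) of each of the 31 members (rows, ordered by the day 0 effect without rescue) from the mean of the day 0 si-CTL libraries without rescue, in all 24 libraries (columns, 3 in each group). The block of red in the day 0 si-Rsl24d1 libraries without rescue is paler with rescue, and the 3 libraries of a group look alike in most rows.

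Levels in unperturbed cells spanned a wide range on the length-normalised scale. In day 0 si-CTL cells without rescue Psrc1 was the most abundant member at a mean of 141 TPM, followed by Aen at 101 TPM and Ei24 at 95.7 TPM. The least abundant were Trp73 at 1.44 TPM and Fas at 1.10 TPM. Summed over the 31, abundance was 1093 to 1174 TPM in these libraries and 2501 to 2598 TPM in si-Rsl24d1 cells. The sums of the 2 groups did not overlap.

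Among the genes of growth control and stress, 5 of 7 were called higher. Btg2 (chr1:134075170-134079120, minus strand), an antiproliferative cofactor of mRNA deadenylation, stood at 4.51, 4.52 and 4.60 in si-CTL and at 6.46, 6.42 and 6.50 in si-Rsl24d1 libraries, a rise of 1.92 ± 0.041 (SE, adjusted p = 4.5e-17). For Plk2 (chr13:110395046-110400844, plus strand), a polo-like kinase of the stress response, the levels were 5.03, 4.85 and 4.86 against 6.73, 6.60 and 6.67, a rise of 1.75 ± 0.076 (adjusted p = 5.5e-13). In both genes every si-Rsl24d1 library was more than 1 log2 unit above every si-CTL library. Trp53inp1, a nuclear stress protein that promotes autophagy, was at 6.47, 6.13 and 6.04 and rose to 7.84, 7.72 and 7.66 (1.52 ± 0.13, adjusted p = 7.4e-09). Phlda3, a membrane-binding protein that restrains AKT, went from 5.68, 5.80 and 5.72 to 7.11, 7.02 and 7.12 (1.35 ± 0.042, adjusted p = 4.4e-15). In Trp53inp1 and Zmat3 the first si-CTL library was the highest of its group, while Phlda3 was tight in both groups. Zmat3, a zinc finger protein that binds RNA and alters splicing, had 5.15, 4.71 and 4.72 against 5.83, 5.70 and 5.66 (0.87 ± 0.14, adjusted p = 3.0e-05). Zmat3 lay just above the fold threshold, and its call was lost without si-CTL replicate 2 or 3 or si-Rsl24d1 replicate 1, with the adjusted p still passing.

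The remaining genes of this role did not pass. Sesn1, a sestrin that restrains mTORC1 signalling, had 3.00, 2.82 and 2.75 in si-CTL and 2.88, 2.77 and 2.81 in si-Rsl24d1 libraries (-0.04 ± 0.088, adjusted p = 0.77), and its groups overlapped. Gdf15, a secreted stress hormone, had 2.23, 2.36 and 2.37 against 2.58, 2.59 and 2.33 (0.18 ± 0.12, adjusted p = 0.23). Gdf15 is also a target of ATF4, the transcription factor of the integrated stress response. Of 13 genes of the ATF4 pathway tested beside it, 9 fell and 2 rose by the adjusted p, with a median of -0.84. The part of ATF4 in the value of Gdf15 was not tested.

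All 7 genes of cell death rose by the adjusted p and 5 of them were called. The strongest was Perp (chr10:18845020-18857073, plus strand), a membrane protein of desmosomes that takes part in p53-dependent death, at 5.62, 5.60 and 5.51 in si-CTL and 7.57, 7.51 and 7.57 in si-Rsl24d1 libraries, a rise of 1.97 ± 0.056 (SE, adjusted p = 1.3e-15). Fas (chr19:34290666-34327772, plus strand), the death receptor for Fas ligand, was near the lower limit of the data in si-CTL libraries at 0.99, 0.96 and 1.25 and stood at 2.81, 2.90 and 2.84 in si-Rsl24d1 libraries (1.78 ± 0.12, adjusted p = 4.4e-10). The addition of 1 to the TPM compresses the change of so low a gene, and with 0.1 added the rise of Fas was 2.41. Pidd1, a scaffold that activates a caspase, had 4.20, 4.32 and 4.37 against 5.59, 5.43 and 5.59 (1.24 ± 0.07, adjusted p = 2.6e-11). Eda2r, a receptor of the TNF receptor family for ectodysplasin, had 4.75, 4.37 and 4.41 against 5.78, 5.72 and 5.64 (1.20 ± 0.11, adjusted p = 2.3e-08). Of Eda2r the first si-CTL library was again the highest of its group, and it lay below every si-Rsl24d1 library. Tnfrsf10b, the mouse receptor for TRAIL, had 4.57, 4.29 and 4.33 against 5.31, 5.26 and 5.27 (0.88 ± 0.075, adjusted p = 1.1e-08) and fell short of the fold threshold without si-CTL replicate 2. Aen, an exonuclease that enhances apoptosis, and Ei24, a protein of the endoplasmic reticulum, were abundant already and rose by 0.44 ± 0.048 and 0.45 ± 0.038 (adjusted p = 4.2e-07 and 7.4e-09), below the fold threshold.

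The genes of DNA repair were divided, with 3 of 6 called higher, 1 lower by the adjusted p and 2 not passing. Zfp365 (chr10:67886103-67912662, minus strand), a zinc finger protein linked to genome stability, showed the largest rise of all 31 on the log2(TPM + 1) scale. It went from 3.70, 3.57 and 3.50 to 6.00, 5.89 and 5.89 (2.33 ± 0.098, SE, adjusted p = 3.4e-13). With 0.1 in place of 1 added to the TPM, Trp73 rose by more than Zfp365 (2.64 against 2.43). Ercc5, the endonuclease XPG of nucleotide excision repair, went from 4.41, 4.05 and 4.08 to 5.51, 5.34 and 5.50 (1.27 ± 0.09, adjusted p = 7.5e-10). Polk, a polymerase that copies past damaged bases, went from 3.63, 3.48 and 3.39 to 4.75, 4.69 and 4.78 (1.24 ± 0.074, adjusted p = 6.0e-11). In Zfp365, Ercc5 and Polk the groups were separated by more than the spread within either. The genes that recognise damage for nucleotide excision repair did not rise. Xpc had 3.37, 3.23 and 3.20 against 3.27, 3.26 and 3.17 (-0.03 ± 0.075, adjusted p = 0.76). Ddb2 was lower, with 3.18, 3.28 and 3.24 against 3.00, 2.95 and 2.92 (-0.28 ± 0.063, adjusted p = 0.0014), a difference that lost the adjusted p when only the groups compared were fitted. Ddb2 shares 23.8% of its exon bases with Acp2 on the opposite strand, and the sources differ on whether the library kit kept the strand, so reads of the pair may not be told apart. Rrm2b, the p53-inducible subunit of ribonucleotide reductase, had 3.03, 2.91 and 3.07 against 2.99, 2.97 and 2.77 (-0.09 ± 0.086, adjusted p = 0.42).

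All 3 spindle genes rose. Psrc1 (chr3:108383839-108388231, plus strand), a microtubule-binding protein, had 7.13, 7.16 and 7.16 in si-CTL and 8.31, 8.29 and 8.29 in si-Rsl24d1 libraries. The rise was 1.15 ± 0.027 (SE, adjusted p = 1.0e-16), with the smallest standard error of the 31 in this fit. With median of ratios scaling the standard error was 0.049 for Psrc1 and 0.027 for Aen. Ckap2 (chr8:22168160-22185819, minus strand), which stabilises spindle microtubules, went from 6.51, 6.40 and 6.43 to 7.52, 7.47 and 7.51 (1.05 ± 0.039, adjusted p = 6.9e-14). Gtse1, a microtubule-binding protein that also binds p53, rose by 0.82 ± 0.036 (adjusted p = 6.5e-13), just under the fold threshold. Many genes of mitosis are repressed when p53 is active, so 15 other genes of the G2 and M phases were read beside these. Of the 15, 3 rose and 5 fell by the adjusted p, none past the fold threshold, and the median was -0.15. Values in this list ran from -0.29 for Top2a, which did not pass, to 0.36 for Hmmr.

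**Figure D2:**
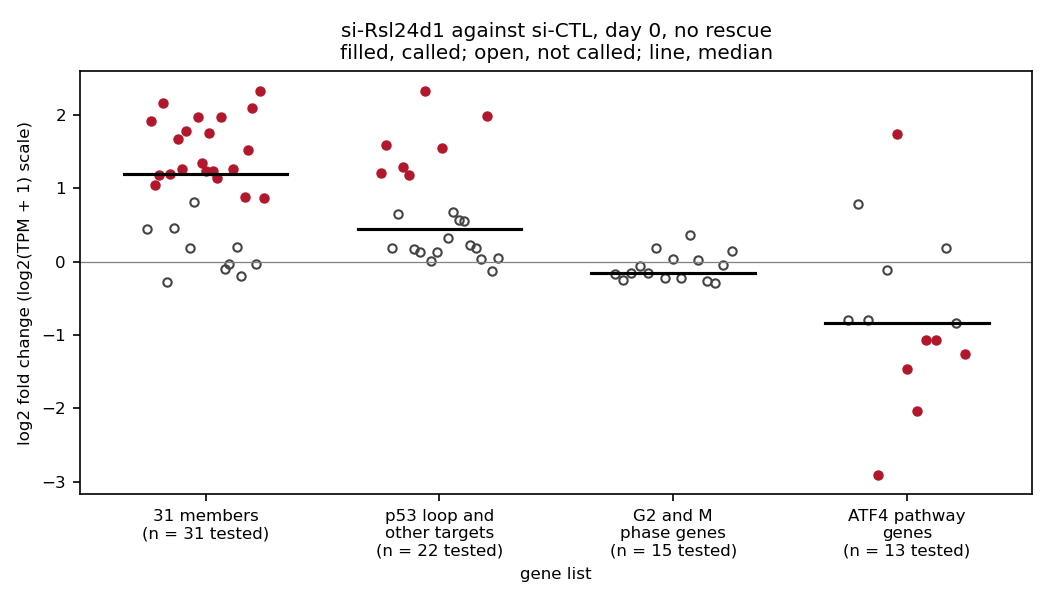
Log2 fold change between si-Rsl24d1 and si-CTL cells at day 0 without rescue (vertical axis, log2(TPM + 1) scale) for each tested gene of 4 lists (horizontal axis). Filled points are genes past both thresholds and lines are medians. The members have a median of 1.20, the feedback loop with other p53 targets 0.44, genes of the G2 and M phases -0.15 and ATF4 pathway genes -0.84.

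Among the genes of metabolism and other functions, 5 of 7 were called higher. Dcxr (chr11:120725399-120727281, minus strand), a reductase of dicarbonyls and xylulose, had 4.62, 4.57 and 4.68 against 6.78, 6.70 and 6.88, a rise of 2.16 ± 0.06 (SE, adjusted p = 9.0e-16). Ptp4a3 (chr15:73723145-73758766, plus strand), a membrane-anchored phosphatase, had 5.52, 5.53 and 5.48 against 7.49, 7.47 and 7.49 (1.98 ± 0.043, adjusted p = 4.5e-17). Ephx1, the microsomal epoxide hydrolase, had 3.22, 3.33 and 3.12 against 4.90, 4.87 and 4.91 (1.67 ± 0.064, adjusted p = 1.0e-13). Within each group the replicates of these 3 genes lay much closer together than the groups did. Slc19a2, a thiamine transporter, went from 5.07, 4.96 and 4.82 to 6.29, 6.17 and 6.19 (1.27 ± 0.073, adjusted p = 3.9e-11). Cpt1c, a relative of the mitochondrial carnitine palmitoyltransferases, went from 4.62, 4.57 and 4.66 to 5.83, 5.79 and 5.80 (1.19 ± 0.05, adjusted p = 3.6e-13). Tigar and Sulf2 did not share this rise. Tigar, a phosphatase that slows glycolysis, fell from 5.04, 5.06 and 5.16 to 4.85, 4.91 and 4.91 (-0.20 ± 0.049, adjusted p = 0.0027), which did not pass when only the compared groups were fitted. Sulf2, a sulfatase acting on heparan sulfate, had 6.05, 5.92 and 5.79 against 6.13, 6.17 and 6.08 (0.20 ± 0.09, adjusted p = 0.078).

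Trp73 (chr4:154056253-154140208, minus strand), the p53 paralogue that can activate many of the same genes, was barely above the lower limit in si-CTL libraries at 1.32, 1.31 and 1.22 and rose to 3.43, 3.33 and 3.39 (2.10 ± 0.08, SE, adjusted p = 9.3e-14). With 0.1 in place of 1 added to the TPM the rise was 2.64. An antisense gene, Trp73os, shares 5.06% of its exon bases.

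**Figure D3:**
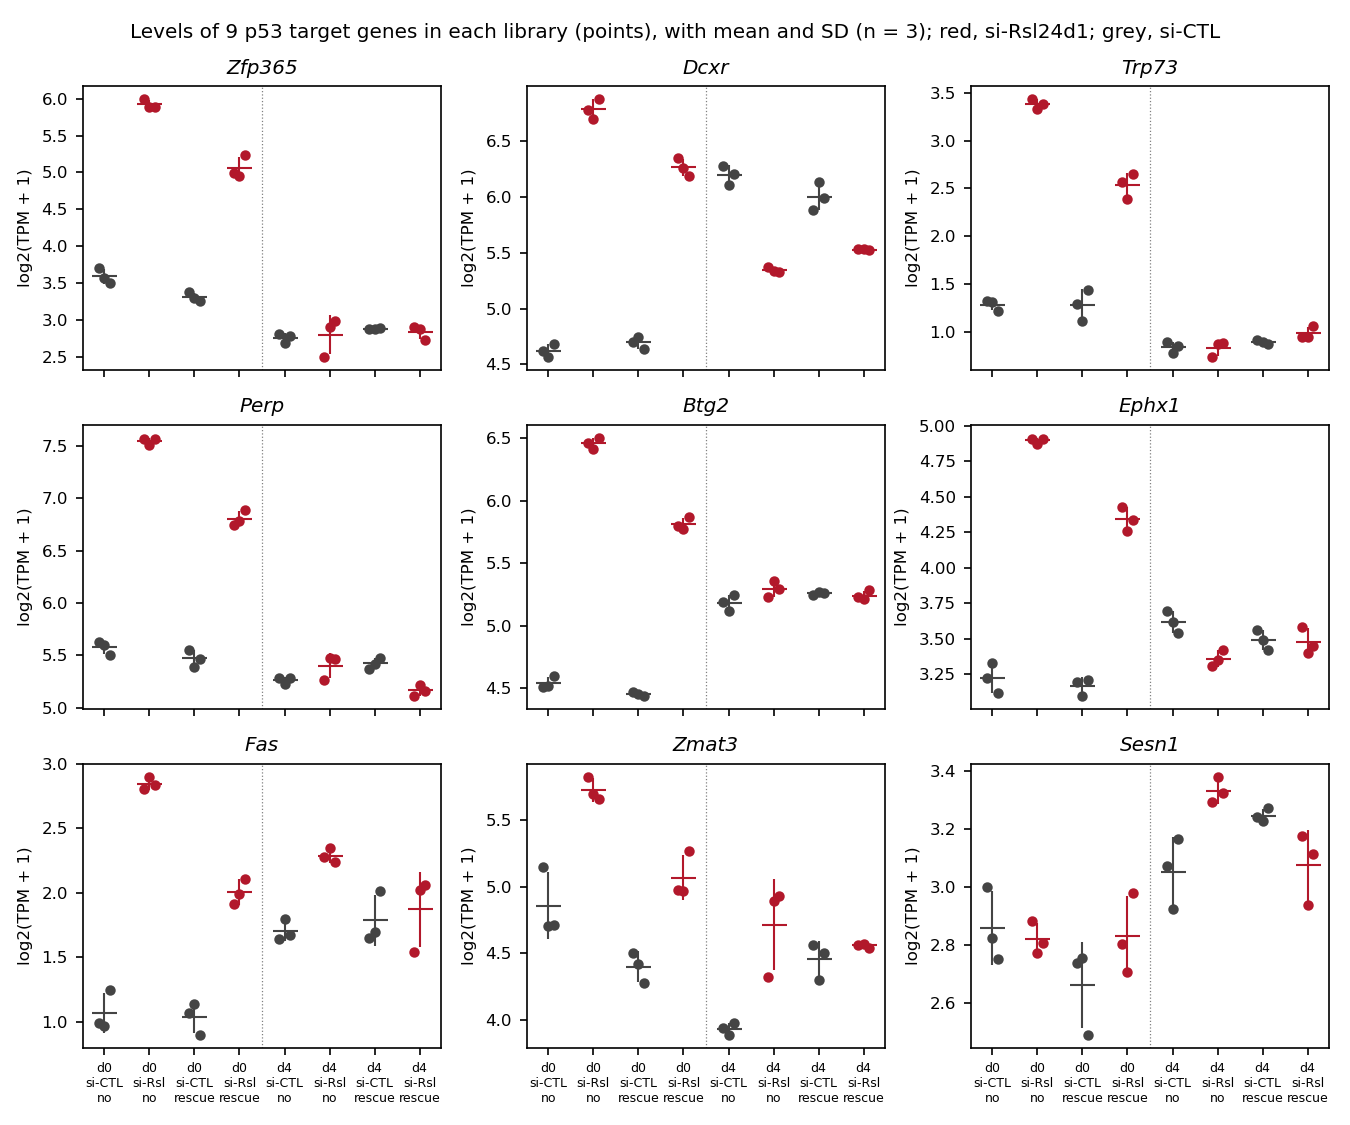
Level in log2(TPM + 1) (vertical axes, each with its own range) of 9 members in the 8 groups (horizontal axis, d0 and d4 for the day, no and rescue for the rescue). Points are libraries, bars the mean and SD of 3, red si-Rsl24d1 and grey si-CTL. Day 0 si-Rsl24d1 libraries without rescue are the highest in Zfp365, Dcxr, Trp73, Perp, Btg2, Ephx1, Fas and Zmat3. At day 0 rescued si-Rsl24d1 libraries lie between them and si-CTL, except that in Zmat3 they overlap unrescued si-CTL. Sesn1 shows no such order.

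The second question was how far restoring RSL24D1 changed these targets. The rescue was compared in si-CTL cells first, and with limma none of the 31 passed the adjusted p when rescued si-CTL cells were set against unrescued ones, where 0.0122% of all genes passed as lower. At an unadjusted p under 0.05, 19 members were lower and none higher with rescue. The share of all genes at that unadjusted p is not given, so the count is not a result about the members. By sign alone 22.1% of all genes and 2 of the 31 members were higher with rescue. The members' median was -0.14 beside -0.12 over all genes, and 0.00 after median of ratios scaling, which removes that shared shift. Within the rescued cells, 11 members were called higher in si-Rsl24d1 than in si-CTL cells, against 1.17% of all genes, and 24 passed the adjusted p as higher, against 8.10%. The median was 0.74. The log2 fold changes of the 11 were 1.75 for Zfp365, 1.57 for Dcxr, 1.49 for Ptp4a3, 1.36 for Btg2, 1.33 for Perp, 1.25 for Trp73, 1.17 for Ephx1, 1.17 for Plk2, 1.00 for Trp53inp1, 0.97 for Fas and 0.93 for Phlda3. The siRNA effects with and without rescue share no library.

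The 2 effects of the siRNA were then compared directly. In a test of the interaction between siRNA and rescue at day 0, 13 members had a smaller rise with rescue by the adjusted p, against 1.18% of all genes in that direction. The count was 6 in a fit of only the groups compared and 18 with median of ratios scaling. In limma none of the 13 passed the fold threshold of 1.8. Psrc1 was the clearest in this fit, with a change of the effect of -0.47 ± 0.038 (SE, adjusted p = 1.4e-06). With median of ratios scaling its adjusted p was 2.5e-04, and that of Perp was 4.0e-06. With rescue the libraries of Psrc1 stood at 7.19, 7.22 and 7.18 in si-CTL and 7.88, 7.85 and 7.90 in si-Rsl24d1 cells. All 3 of the latter were below every unrescued si-Rsl24d1 library and above every si-CTL library. Trp73 had the largest difference between the effects (-0.85 ± 0.11, adjusted p = 2.2e-04), with 1.29, 1.11 and 1.44 and 2.56, 2.39 and 2.65 under rescue. Fas followed at -0.81 ± 0.17 (adjusted p = 0.0082), with 1.06, 1.13 and 0.90 and 1.91, 1.99 and 2.11. Both genes are low in si-CTL cells, and their rescued libraries lay between the other groups. The other 10 were Btg2, Ckap2, Cpt1c, Dcxr, Ephx1, Gtse1, Perp, Phlda3, Plk2 and Ptp4a3. Of Zfp365, whose rise was the largest on the log2(TPM + 1) scale, the effect differed by -0.58 ± 0.14 and did not pass (adjusted p = 0.018). It did pass with median of ratios scaling (adjusted p = 0.0017).

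Expressed as a share, the log2 change left with rescue had a median of 65.9% over the 21 members called without rescue, from 54.5% for Fas to 76.9% for Zmat3. Over the other 539 genes called higher without rescue the median was 63.3%, from -102.6% to 100.3%. Both sets were selected by a large effect without rescue, which is also the divisor. That selection by itself favours a smaller effect with rescue. Rescued si-Rsl24d1 cells were also compared with unrescued si-Rsl24d1 cells, a comparison that shares libraries with both effects above. There 25 members were lower by the adjusted p, against 12.2% of all genes, and Trp53inp1 (-0.90 ± 0.13), Zfp365 (-0.87 ± 0.098) and Trp73 (-0.85 ± 0.08) were called lower, against 0.249% of all genes (adjusted p = 4.8e-05, 5.0e-06 and 7.2e-07). With median of ratios scaling none of the 3 calls remained, 25 members were lower by the adjusted p and Tigar was higher. Without rescued replicate 2 or unrescued replicate 1 these 3 calls were lost as well, and without rescued replicate 1 those of Trp53inp1 and Zfp365. Without unrescued replicate 1 Fas was called in their place, and without rescued replicate 3 Fas and Plk2 were called as well, 5 in all.

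**Figure D4:**
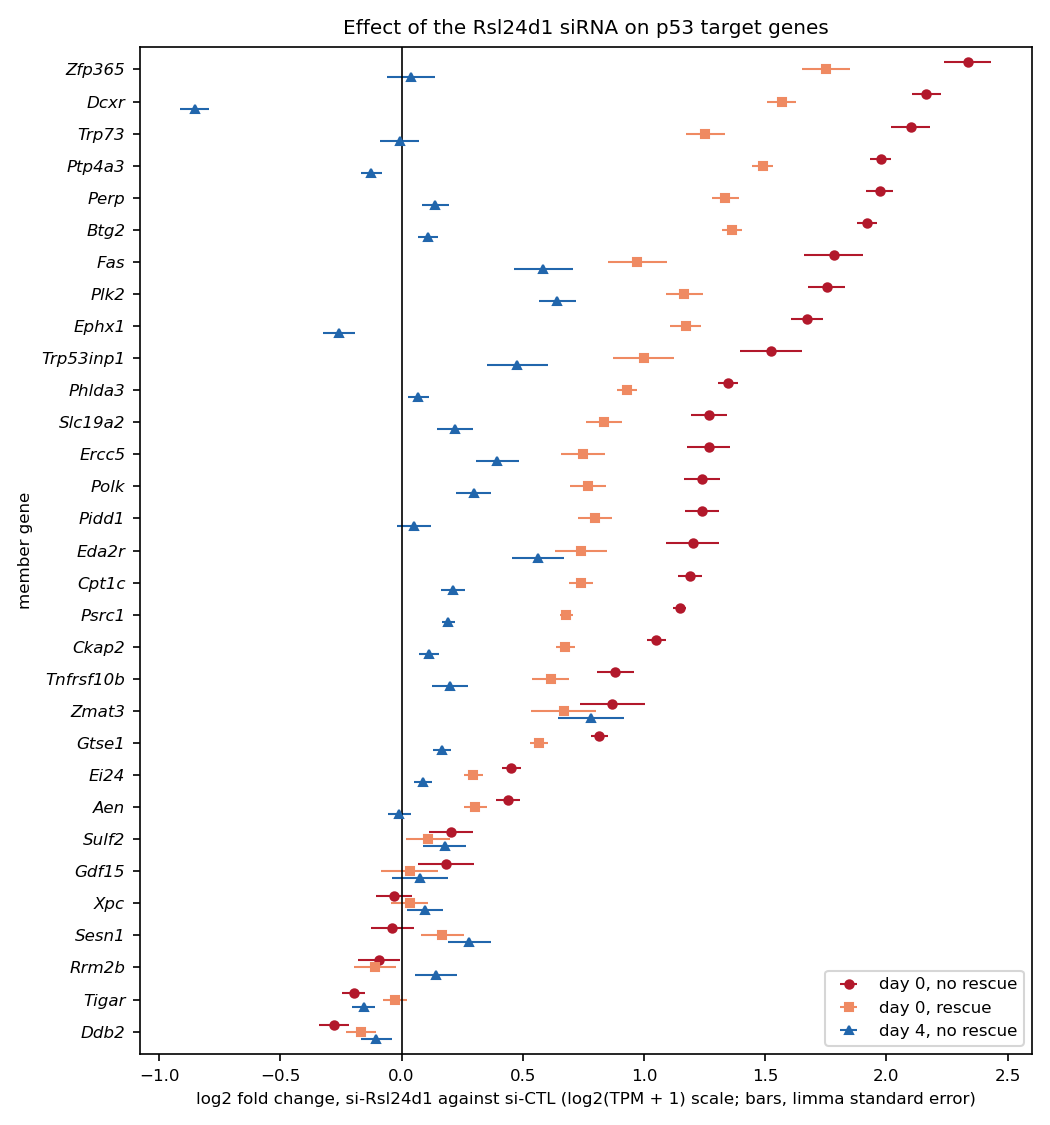
Log2 fold change between si-Rsl24d1 and si-CTL cells (horizontal axis, log2(TPM + 1) scale, bars the limma standard error) for the 31 members (vertical axis) at day 0 without rescue (circles), at day 0 with rescue (squares) and at day 4 without rescue (triangles). Squares lie to the left of circles in all 21 members called at day 0 without rescue, which were selected by the effect that the circles show. Dcxr goes from 2.16 at day 0 to -0.85 at day 4.

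The third question was whether the targets still differed after 4 days of RA. At day 4 without rescue 1 member was called, Dcxr, which was lower in si-Rsl24d1 cells, against 0.182% of all genes called lower. By the adjusted p alone 10 members were higher and 2, Dcxr and Ephx1, lower, against 24.9% and 6.04% of all genes. The members' median was 0.14 beside 0.13 over all genes. After median of ratios scaling, which removed the shift of all genes, 4 members were higher and 6 lower by the adjusted p and the median was -0.03. In a fit of only these groups 2 were higher and 1 lower, and without si-Rsl24d1 replicate 1, the lowest of its group in many members, 16 were higher and 1 lower. Without si-CTL replicate 2 or si-Rsl24d1 replicate 3, 6 were higher. The shares of all genes under these settings are not given, so these counts cannot be set against a background. Zmat3 (0.78 ± 0.14, adjusted p = 1.8e-04), Plk2 (0.64 ± 0.076, adjusted p = 3.5e-06), Fas (0.58 ± 0.12, adjusted p = 8.6e-04) and Eda2r (0.56 ± 0.11, adjusted p = 4.2e-04) were higher with and without that scaling. Zmat3 libraries stood at 3.94, 3.89 and 3.98 in si-CTL and 4.32, 4.89 and 4.93 in si-Rsl24d1 cells. The first si-Rsl24d1 library was the lowest of its group and still above si-CTL.

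Markers of other cell types moved in the same libraries. All 6 tested primitive endoderm markers were higher in day 4 si-Rsl24d1 cells by the adjusted p, with a summed abundance of all 8 of 19.3 to 25.3 TPM in si-CTL and 39.4 to 51.6 TPM in si-Rsl24d1 libraries. Of 7 tested fibroblast markers 4 were higher, and the sum of 8 was 108.6 to 117.2 TPM against 211.8 to 282.3 TPM. Of 5 tested neural progenitor markers 2 were higher, and the sum of 8 was 37.3 to 37.7 TPM against 49.5 to 60.7 TPM. In these 3 lists no gene was at 0 in all libraries of a day 4 group. Their part in the day 4 values of the targets was not tested.

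The effect of the siRNA at day 4 was set against that at day 0 in an interaction test, in which no library is shared between the 2 effects. The effect was smaller at day 4 in 23 members by the adjusted p, against 8.83% of all genes, and 18 were called, against 2.71%. The median of the members was -0.94 beside 0.14 over all genes. The day 4 levels show how near the groups came. Zfp365 had 2.80, 2.69 and 2.78 in si-CTL and 2.50, 2.91 and 2.99 in si-Rsl24d1 libraries, a difference between days of -2.30 ± 0.14 (SE, adjusted p = 2.6e-10). Trp73 had 0.89, 0.77 and 0.85 and 0.73, 0.87 and 0.88 (-2.11 ± 0.11, adjusted p = 4.5e-11). The groups overlapped at day 4 in both. Ptp4a3 had 5.46, 5.34 and 5.43 and 5.21, 5.32 and 5.31 (-2.10 ± 0.061, adjusted p = 9.6e-15). Perp had 5.28, 5.23 and 5.28 and 5.26, 5.48 and 5.47 (-1.83 ± 0.079, adjusted p = 1.9e-12). Btg2 had 5.19, 5.12 and 5.24 and 5.23, 5.36 and 5.29 (-1.81 ± 0.059, adjusted p = 4.0e-14). For each of these 5 genes the day 4 difference did not pass the test, although Ptp4a3 was lower with median of ratios scaling.

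Dcxr and Ephx1 differed in opposite directions on the 2 days. Dcxr stood at 6.28, 6.10 and 6.21 in si-CTL and 5.37, 5.34 and 5.33 in si-Rsl24d1 libraries at day 4, a difference of -0.85 ± 0.06 (SE, adjusted p = 4.0e-09), and its effect changed by -3.02 ± 0.084 between days (adjusted p = 9.6e-15). Every si-Rsl24d1 library was below every si-CTL library at day 4 and above every one at day 0. The day 4 call of Dcxr lies at the fold threshold and was lost without si-CTL replicate 1 or 3 or si-Rsl24d1 replicate 3, while the adjusted p still passed. Ephx1 had 3.70, 3.62 and 3.54 against 3.31, 3.35 and 3.42 (-0.26 ± 0.064, adjusted p = 0.0033), with a change between days of -1.93 ± 0.091 (adjusted p = 6.7e-12). The day 4 difference of Ephx1 lost the adjusted p in a fit of only the groups compared. It was also lost without si-CTL replicate 1 or 2 or si-Rsl24d1 replicate 1 or 2. With median of ratios scaling it passed (-0.41, adjusted p = 1.2e-04).

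The other 11 genes called in the interaction had smaller differences at day 4 than at day 0. The stress genes Phlda3 (6.13, 6.14 and 6.10 against 6.14, 6.19 and 6.25), Plk2 (4.77, 4.74 and 4.80 against 5.25, 5.53 and 5.46) and Trp53inp1 (6.37, 6.45 and 6.62 against 6.65, 7.16 and 7.06) changed between days by -1.28, -1.11 and -1.05. Fas had 1.644, 1.796 and 1.674 against 2.28, 2.35 and 2.24 and Pidd1 3.46, 3.52 and 3.54 against 3.45, 3.63 and 3.58, with changes between days of -1.20 and -1.19. Fas stayed separated by more than its spread and Pidd1 overlapped. The repair genes Ercc5 (4.16, 4.00 and 4.15 against 4.36, 4.49 and 4.65) and Polk (3.86, 3.69 and 3.93 against 4.00, 4.21 and 4.15) changed by -0.87 and -0.94. Ercc5 lay at the fold threshold and lost its call when any of 7 single libraries was left out, 1 of them the low si-Rsl24d1 replicate 1 of day 4. The spindle genes Psrc1 (7.11, 7.07 and 7.03 against 7.29, 7.24 and 7.25) and Ckap2 (6.44, 6.49 and 6.50 against 6.52, 6.64 and 6.60) changed by -0.96 and -0.94. Slc19a2 (4.74, 4.75 and 4.75 against 4.82, 5.02 and 5.06) and Cpt1c (4.84, 4.73 and 4.79 against 4.91, 5.08 and 5.01) changed by -1.05 and -0.98. Their adjusted p ran from 7.4e-13 for Psrc1 and 5.7e-12 for Phlda3 to 1.2e-04 for Trp53inp1. Zmat3 was the 1 member called at day 0 whose effect was not shown to differ between days (-0.09 ± 0.19, adjusted p = 0.74).

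Between day 0 and day 4 the members differed in both directions. In si-CTL cells Dcxr rose by 1.57 ± 0.06 (SE, adjusted p = 1.7e-14) and Zmat3 fell by 0.92 on the log2 scale (adjusted p = 5.2e-06) from day 0 to day 4, against 6.77% of all genes called higher and 8.24% called lower. By the adjusted p alone 10 members were higher and 10 lower, against 24.1% and 36.7% of all genes, and with median of ratios scaling 13 and 8. The call of Zmat3 was lost with that scaling and without day 0 si-CTL replicate 1. In si-Rsl24d1 cells 16 members were called lower at day 4, against 6.22% of all genes, and 25 were lower and 3 higher by the adjusted p, against 26.4% and 29.4%. The largest falls were those of Zfp365 (-3.13), Trp73 (-2.56), Ptp4a3 (-2.20) and Perp (-2.15), and the 3 higher genes were Ddb2 (0.79), Sesn1 (0.51) and Xpc (0.47). These comparisons share their libraries with the effects of the siRNA on each day. Rsl24d1 rose by 1.39 ± 0.07 in the same si-Rsl24d1 libraries and differed by -0.52 ± 0.07 between the days in si-CTL cells.

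With rescue at day 4, Psrc1 was higher in si-Rsl24d1 than in si-CTL cells (0.14 ± 0.027, SE, adjusted p = 0.0019), and Dcxr (-0.47 ± 0.06, adjusted p = 2.2e-05), Ddb2 (-0.28 ± 0.063, adjusted p = 0.0061) and Perp (-0.26 ± 0.056, adjusted p = 0.0043) were lower, against 2.33% of all genes higher and 3.53% lower by the adjusted p. Dcxr had 5.89, 6.13 and 5.99 in si-CTL and 5.53, 5.53 and 5.52 in si-Rsl24d1 libraries, and the groups did not overlap. In rescued day 4 cells the remaining 27 members did not pass. With median of ratios scaling Psrc1 (adjusted p = 0.019) and Ddb2 (adjusted p = 0.030) no longer passed. In a fit of only these groups none was higher and 1 was lower. Leaving out 1 library gave 0 or 1 higher and 1 or 2 lower, with none higher without si-CTL replicate 1 or 3 or si-Rsl24d1 replicate 1 and 1 lower without si-CTL replicate 2 or si-Rsl24d1 replicate 1 or 3.

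The other p53 targets read beside these 31 were 22 genes, among them the feedback loop. At day 0 without rescue 13 of the 22 rose by the adjusted p and 7 were called higher, with a median of 0.44. Of all genes 14.3% and 3.40% did so. With rescue 11 rose and 4 were called, against 8.10% and 1.17% of all genes, with a median of 0.28. At day 4 without rescue 11 were higher and 1 lower by the adjusted p, against 24.9% and 6.04% of all genes. Their median was 0.17 beside 0.13 over all genes. Mdm2 was at 102 TPM in si-CTL, 520 TPM in si-Rsl24d1 and 284 TPM in rescued si-Rsl24d1 cells at day 0, and its day 4 difference was 0.40 ± 0.058 (SE, adjusted p = 3.4e-05).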

How the data were processed

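RNA-seq of 24 libraries in 8 groups of 3 independent triplicates was analysed. The authors mapped or quantified reads (STAR 2.7.8a and Salmon 1.4.0 per the labels), summarised them per gene, and deposited log2 values of TPM with 1 added for 54242 symbols. TPM sum to 1e+06 in each library, so depth is unknown and no count model was possible. Each group mean rests on 3 libraries. The labels name GRCh38, a poly-A kit and an empty vector, where the methods name a mouse genome, a stranded total-RNA kit and a rescue line. A stranded count could change values of overlapping genes.

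The 16447 genes whose average log2(TPM + 1) reached 0.5 were tested with limma 3.58.1 in R 4.3.3 (8 group means, empirical Bayes with trend, two-sided, Benjamini-Hochberg within each comparison over all genes). Called genes had an adjusted p below 0.01 and a change above 1.8-fold (0.848 on the log2 scale), the thresholds of the study. Fold changes are on the log2(TPM + 1) scale, which understates changes of low genes. Interactions compared the siRNA effect between days and between rescue states. The members, lists and thresholds were chosen with earlier results of these data known. All members could be named. Values in every library were given for members called at day 0 without rescue or in the interaction with day, and other genes were named only from lists or as part of the feedback loop.

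No pairing by replicate number was seen over all groups together (mean residual correlation -0.0173 over 84 pairs with the same number and 0.00865 over 168 with different numbers). Pairing limited to some groups was not tested. No library duplicated another (highest correlation 0.991, 0 identical). Gene positions are from gencode vM21 on GRCm38. Promoters are from RefSeq GRCm38.p6. Alternatives were 0.1 or 2 added to the TPM, no filter or a filter at 1.5, only the compared groups in the fit, a replicate block, median of ratios scaling, an adjusted p of 0.05, no fold threshold, and leaving out each replicate. Counts by the adjusted p alone under each of these were added after the data were seen. Shares of all genes are from the main fit only, so counts under the alternatives have no share beside them.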

Additional observations from a re-analysis of the deposited data

Results flagged for a closer look

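The effect of the siRNA on 23 members differed between day 4 and day 0 in the test of the interaction (limma, adjusted p below 0.01), each time as a smaller or opposite difference at day 4. On the log2 scale the change of the effect was -3.02 for Dcxr, -2.30 for Zfp365, -2.11 for Trp73, -2.10 for Ptp4a3, -1.93 for Ephx1, -1.83 for Perp and -1.81 for Btg2. It was -1.28 for Phlda3, -1.20 for Fas, -1.19 for Pidd1, -1.11 for Plk2, -1.05 for Slc19a2 and -1.05 for Trp53inp1. For the others it was -0.98 for Cpt1c, -0.96 for Psrc1, -0.94 for Polk, -0.94 for Ckap2, -0.87 for Ercc5, -0.68 for Tnfrsf10b, -0.65 for Gtse1, -0.64 for Eda2r, -0.45 for Aen and -0.36 for Ei24.

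The day 0 effect of the siRNA differed between cells with and without rescue in 13 members by the same kind of test, smaller with rescue in each. By the adjusted p 6 members passed in a fit of only the groups compared and 18 with median of ratios scaling. The difference was -0.85 for Trp73, -0.81 for Fas, -0.64 for Perp, -0.60 for Dcxr, -0.59 for Plk2, -0.56 for Btg2, -0.50 for Ephx1, -0.49 for Ptp4a3, -0.47 for Psrc1, -0.45 for Cpt1c, -0.42 for Phlda3, -0.37 for Ckap2 and -0.25 for Gtse1. Both tests use the unrescued day 0 libraries, so they are not independent of each other. Dcxr and Ephx1 are the genes that passed the adjusted p on both days with opposite directions. Their 3 si-Rsl24d1 libraries lay above si-CTL at day 0 and below at day 4. At day 4 Ephx1 lost the adjusted p in a fit of only the groups compared.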

How the results depend on the processing

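For the 175 results of single members that passed the adjusted p, the alternatives gave 2841 values. Of these, 2725 kept their sign and side of the adjusted p, 116 lost the adjusted p and 0 changed sign. The 2725 include the values obtained without the fold threshold and with the looser adjusted p. Neither setting could change a result here, because both keep the main fit and the results had already passed the stricter adjusted p. The values from these settings therefore say nothing about stability. Over all 310 values of members in the 10 comparisons, median of ratios scaling changed the sign of 41, none of which passed in either form, 15 gained the adjusted p and 10 lost it. Counts of called members at day 0 without rescue (21), in the interaction with day (18) and for the rescue in si-CTL cells (0) stayed within 1.5 times under every alternative run. Without the fold threshold the counts were 24 for rescued si-Rsl24d1 against si-CTL at day 0, 25 for rescued against unrescued si-Rsl24d1, 12 and 4 for day 4 without and with rescue, 20 and 28 for day 4 against day 0 in si-CTL and si-Rsl24d1 cells, and 13 for the interaction with rescue. Median of ratios scaling gave 0 in place of 3 for rescued against unrescued and 1 in place of 2 for day 4 against day 0 in si-CTL cells. With 0.1 added to the TPM that last count was 4 and the interaction with rescue had 1 call, and with 2 added the day 4 count without rescue was 0 in place of 1. Leaving out 1 replicate gave 0 to 5 for rescued against unrescued, 0 to 2 for day 4 without rescue, 1 to 3 for day 4 against day 0 in si-CTL cells and 0 to 2 for the interaction with rescue. The causes were not tested, beyond the construction of each alternative.

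No pairing by replicate number was seen over all groups together. With a replicate block the counts of calls were 21 at day 0 without rescue, 11 with rescue, 3 for rescued against unrescued, 1 at day 4, 18 in the interaction with day, and the same as without it elsewhere, and the members past the adjusted p in the interaction with rescue were 12 in place of 13. In the interaction with rescue 6 members passed the adjusted p in a fit of only the groups compared, 18 with median of ratios scaling and 9 to 16 on leaving out 1 library.

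Median of ratios scaling removed a shift in the median of all genes of -0.11 (rescue against no rescue, si-Rsl24d1), -0.12 (the same in si-CTL), 0.13 (day 4), -0.10 (day 4 against day 0, si-CTL) and 0.13 (interaction with day). Depth is unknown, so the read numbers behind low genes such as Fas and Trp73 cannot be checked. Their group means rest on 3 libraries each, and their standard errors on the spread over all groups in the fit.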
